A study of Caenorhabditis elegans with 6 samples.

Results

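The invertebrate-type lysozymes of *C. elegans*, the *ilys* family, were examined in RNA from worms treated with vitamin K2 (VK2). The members were chosen by gene symbol, *ilys-1* to *ilys-6*, in the tables of expression values, and 5 of these 6 were among the 17399 genes listed in at least 1 table. The VK2 group was wild-type N2 worms that received 0.1 μM VK2 in their NGM agar for 7 days, beginning in young adulthood. The control group was N2 worms of the same age on agar that held no VK2. Both groups lived at 20°C, daily changes of plate kept their offspring out of the samples, and RNA was taken from whole bodies. The VK2 libraries are T1, T2, and T3 and the control libraries are C1, C2, and C3. The labels do not say whether libraries of a group came from separate cultures, so the p-values below measure only the spread between these libraries. N2 is a single laboratory strain and whole worms mix all tissues, so fewer cells of a type and less RNA per cell cannot be told apart in any value given here.

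Lysozymes are enzymes that cut the peptidoglycan of bacterial cell walls. *C. elegans* feeds on bacteria and carries a large family of amoeba-type lysozymes, the *lys* genes, beside the smaller *ilys* family, whose enzymes resemble those of molluscs and other invertebrates. Both families are known from the digestion of bacterial food and from defense against infection. *ilys-3* is the best studied *ilys* gene. It is known to be expressed in the pharynx and the intestine and to help the worm break down bacteria, and its induction has been placed under the ERK MAP kinase cascade. The other members are annotated as lysozymes by their sequence, and no further role is given for them here.

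In the Ensembl annotation of WBcel235, the build that the files use, 3 of the 6 genes stand in a row on the plus strand of chromosome IV. *ilys-3* (WBGene00016670) lies from 2464456 to 2465443, *ilys-2* (WBGene00016669) from 2467678 to 2468879, and *ilys-1* (WBGene00016668) from 2470414 to 2471449. They are separated by 2234 bases between *ilys-3* and *ilys-2* and by 1534 bases between *ilys-2* and *ilys-1*. *ilys-6* (WBGene00020982, minus strand, 4062514 to 4063673) and *ilys-4* (WBGene00016958, minus strand, 7895628 to 7897543) are elsewhere on chromosome IV, and *ilys-5* (WBGene00017691, minus strand, 6533490 to 6536840) is on chromosome X. The annotated proteins are of much the same size, with 139 residues for *ilys-2*, *ilys-3*, and the longer form of *ilys-5*, 138 for *ilys-6*, and 159 for *ilys-4*, whereas that of *ilys-1* has 73. *ilys-2* and *ilys-3* have 4 exons each and *ilys-6* has 5. The sources used here do not say how reads that match more than 1 of these paralogs were assigned.

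*ilys-2* and *ilys-3* are the members that the study also measured by real-time PCR, and its primers are shown here because they are the designed sequences for the members that the study followed up. Whether each primer matches its own gene only was not tested. They are written 5′ to 3′.
*ilys-2* forward primer: ctggaagagatgtgctgacg
*ilys-2* reverse primer: cccactaccttgacggctta
*ilys-3* forward primer: taatttcagcggtcgcctac
*ilys-3* reverse primer: ggatccgacgtccatgttac
Each primer has 20 bases, and both targets are on chromosome IV. The real-time PCR values were not analysed here.

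The expression values are FPKM, which scales the fragments of a transcript by its length and by the fragments mapped in the library. They stand in 2 tables, the first with T1 and C1 and the second with T2, T3, C2, and C3. FPKM summed over all transcripts was 654910 and 686279 in the first table but only 369349 to 396004 in the second, so levels were compared within a table. No read numbers come with the values, so the depth and its counting error are unknown. C3 stood apart in the second table. Of 14191 genes tested, 418 were lower in C3 than in T2, T3, and C2 by a log2 of at least 1 and 411 were higher by as much, whereas the like counts for T2, T3, and C2 were between 2 and 32. The genes listed as markers of intestine (12 genes), pharynx (14 genes), and coelomocytes (6 genes) were all above 0 in every library. That does not measure how much of each tissue the samples held.

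*ilys-5* was by far the most abundant member. It held 74.1% of the summed FPKM of the listed *ilys* genes in T1 and 89.4% in C1, and 76%, 83.3%, and 86.4% in T2, T3, and C2, but 21.8% in C3. Its level was above that of 98.7% to 99.2% of all genes of its table in every library except C3, where it was above 74.1%. *ilys-3* came second in the 5 libraries apart from C3 and first in C3. *ilys-3* was higher than *ilys-2* in all 6 libraries. In the second table *ilys-3* averaged 31.6 ± 7.88 FPKM in VK2-treated worms and 25.5 ± 10.9 FPKM in control worms (SD, n = 2 each). *ilys-2* averaged 23.6 ± 9.43 FPKM in VK2-treated worms and 15.6 ± 4.62 FPKM in control worms (SD, n = 2 each). Between these group means the 2 genes differed by about the spread over libraries, but in the first table *ilys-3* was about 4 times *ilys-2*, at 96.7 against 23.1 FPKM in T1 and at 40.7 against 10.1 FPKM in C1. *ilys-4* was below *ilys-2* in the 4 libraries of the second table but above it in T1 and C1. *ilys-6* was the lowest listed member, and *ilys-1* was listed in neither table, so nothing is said of its level.

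**Figure D1:**
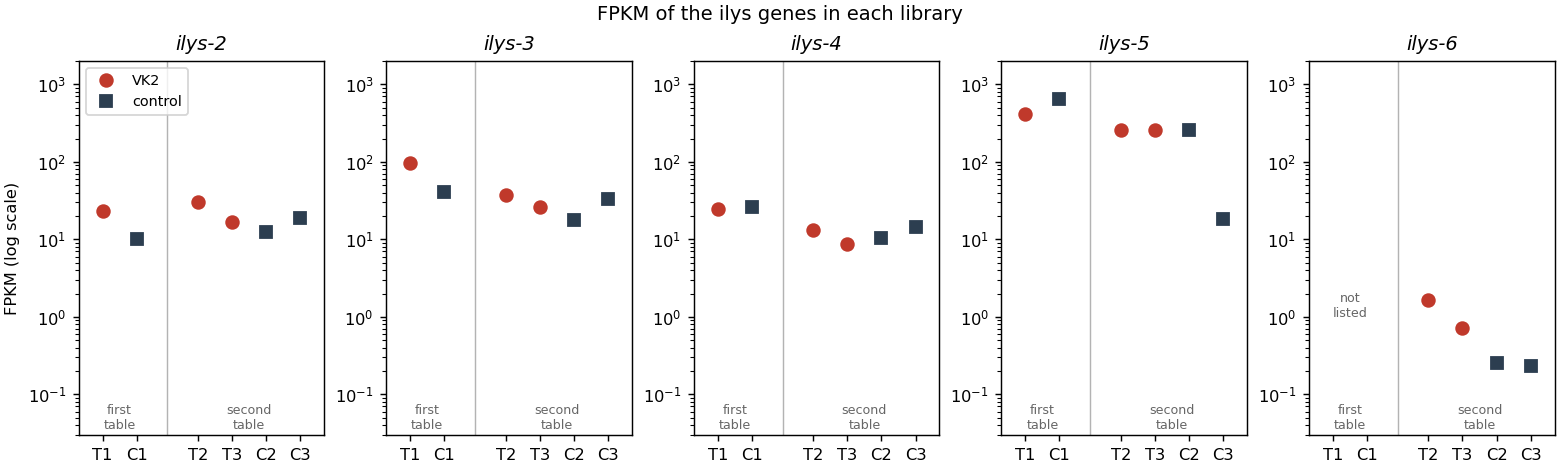
FPKM of each listed *ilys* gene (log axis) in each library, with VK2 libraries as circles left of the control libraries as squares, and the first table left of the grey line. *ilys-5* stands at 259.8 to 261.5 FPKM in T2, T3, and C2 and at 18.6 in C3, while *ilys-6* is listed in the second table only.

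*ilys-2* and *ilys-3* are the members that the study named, having chosen them on these samples as genes of the defense response with higher expression under VK2, so their direction here is not independent evidence. The FPKM of *ilys-2* was 23.1 in T1 against 10.1 in C1. In the second table it was 30.2 in T2 and 16.9 in T3, against 12.3 in C2 and 18.9 in C3. T1 and T2 were thus 2.28 and 2.45 times the control of the same number, while T3 was 0.894 times C3, and the groups overlapped in the second table because C3 lay above T3. The fitted log2 difference of *ilys-2* was 0.73 (standard error 0.28, 95% interval 0.07 to 1.39), or 1.66 times on the log2(FPKM + 1) scale, which makes a change look smaller at low FPKM. In limma the unadjusted p was 0.0353 and the adjusted p was 1.00 with Benjamini-Hochberg adjustment over the 14191 genes. *ilys-2* therefore did not pass the test.

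The value of *ilys-3* was 96.7 FPKM in T1, against 40.7 FPKM in C1. In the second table it was 37.2 in T2 and 26 in T3, against 17.8 in C2 and 33.2 in C3. T1 was 2.38 times C1 and T2 was 2.09 times C2, but T3 was 0.783 times C3. The order of the 4 libraries of the second table was the same as for *ilys-2*, with T2 highest, then C3, then T3, and C2 lowest, so the groups again overlapped. The fitted log2 difference of *ilys-3* was 0.64, or 1.55 times (standard error 0.30, 95% interval -0.08 to 1.35), with an unadjusted p of 0.0729 and an adjusted p of 1.00 from limma. The controls C2 and C3 differed from each other by 1.86 times for *ilys-3* and by 1.53 times for *ilys-2*, beside fitted differences between the groups of 1.55 and 1.66 times. The spread between these controls was thus above the fitted difference for *ilys-3* and just below it for *ilys-2*. Without C3, the control that lay above T3 for both genes, the fitted difference was 0.95 for *ilys-2* and 0.97 for *ilys-3*. The unadjusted p-values were then 0.00463 and 0.000928 and the adjusted p-values 0.68 and 0.634 from limma. These unadjusted p-values were the smallest of each gene over 22 alternative settings. For *ilys-3* the unadjusted p, from limma or an unmoderated linear model, was 0.05 or more under 19 of the 22, up to 0.372. Within the second table alone the differences were 0.54 for *ilys-2* and 0.34 for *ilys-3*.

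*ilys-4* showed no difference in a steady direction. It had 25 FPKM in T1 against 26 FPKM in C1, and 13.1 in T2 and 8.8 in T3 against 10.4 in C2 and 14.4 in C3. C3 was the highest and T3 the lowest library of the second table, with T2 and C2 between them. The fitted log2 difference of *ilys-4* was -0.13 (standard error 0.21, 95% interval -0.63 to 0.36), with an unadjusted p of 0.549 from limma, and without C3 it was 0.0032. *ilys-4* is the only member that overlaps another protein-coding gene in the annotation. *atic-1* (WBGene00016957), which encodes an enzyme of purine synthesis, lies on the opposite strand from 7882026 to 7900257 and covers all 1916 bases of *ilys-4*. The library kit keeps the strand, but the sources used here do not say whether strand was used in counting. *atic-1* had 27.3 FPKM in T1 against 28.9 FPKM in C1, and 22.5 in T2 and 21.3 in T3 against 19.7 in C2 and 17.7 in C3. Its order in the second table, with C3 lowest, was not that of *ilys-4*.

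*ilys-5* had the largest fitted difference of the 4 members tested and the widest interval. It had 414.1 FPKM in T1, against 644.7 FPKM in C1. In the second table it was 259.9 in T2 and 261.5 in T3, against 259.8 in C2 and 18.6 in C3. Thus T1 was 0.642 times C1, T2 and C2 had nearly the same value, and T3 was 14.1 times C3. The fitted log2 difference was 1.04 (standard error 0.94, 95% interval -1.20 to 3.27), with an unadjusted p of 0.309 and an adjusted p of 1.00 from limma. C3 alone was low, and the sign of the difference rested on it, since without that library it was -0.27 (standard error 0.17). The pairwise log2 differences were -0.64, 0.00, and 3.75. The VK2 difference of *ilys-5* was larger in the second table than in the first by 2.51 (standard error 1.94), with an adjusted p of 1.00 for the interaction term in limma.

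**Figure D2:**
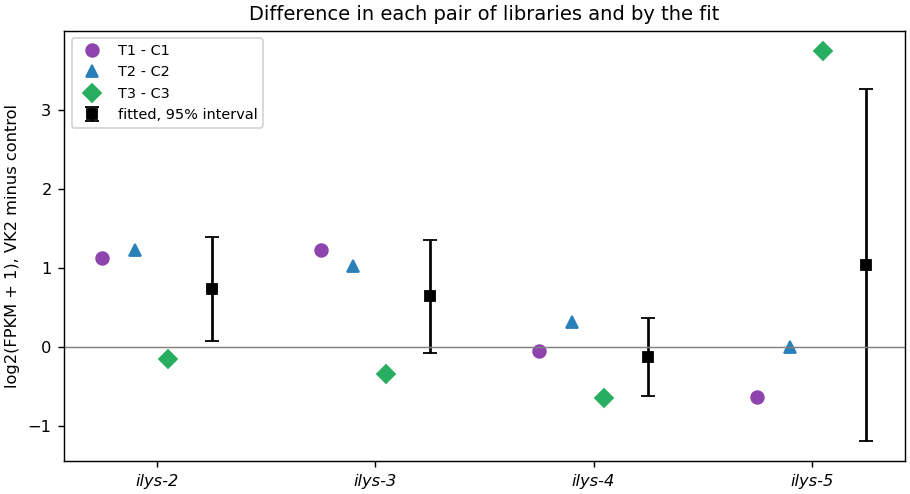
Difference in log2(FPKM + 1), VK2 minus control, for the 4 *ilys* genes tested. Coloured points are the pairs of libraries with the same number and black squares are the fitted difference with its 95% interval. The third pair of *ilys-5* stands at 3.75, and the third pair is below 0 for *ilys-2*, *ilys-3*, and *ilys-4*.

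The forms of *ilys-5* listed with the expression values, of which F22A3.6c.2 is not in the Ensembl annotation used here, were low together in C3. Transcript F22A3.6a, which encodes the longer protein, made up 97% of the gene's FPKM in T1 and 96.5% in C1, and between 97.3% and 98% in the libraries of the second table. It had 253.2 FPKM in T2 and 254.5 FPKM in T3, against 253.5 FPKM in C2 and 18.2 FPKM in C3. The minor coding forms were also lowest in C3, with F22A3.6c.1 at 1.64 in both T2 and T3 against 1.55 in C2 and 0.313 in C3, and F22A3.6c.2 at 2.51 in T2 and 2.00 in T3 against 2.42 in C2 and 0.0674 in C3. The non-coding form F22A3.6b, listed in the second table only, was at 2.6 in T2 and 3.37 in T3 against 2.32 in C2, and was listed at 0 in C3. The low value of *ilys-5* in C3 was therefore listed for each of its transcripts. The annotated forms overlap on the chromosome, and the sources used here do not say how shared reads were divided among them. The minor forms are thus not separate evidence of the low value.

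No other gene tested was as far down in C3. *ilys-5* lay 3.74 below the lowest of T2, T3, and C2 on the log2(FPKM + 1) scale, and of the 14191 genes, 0 had a lower value of C3 minus the mean of those libraries. *ilys-2*, *ilys-3*, and *ilys-4* lay on the other side, at 0.03, 0.35, and 0.40 above that mean, with 62.9%, 81.6%, and 84% of genes below them. Among the 593 genes whose mean log2 level over those 3 libraries was that of 100 FPKM or more, the next drops belonged to the vitellogenins, the yolk proteins made in the intestine, which were singled out after their values were seen. *vit-5* had 717 FPKM in T2 and 994 in T3, against 1050 in C2 and 112 in C3, a drop of 2.67. *vit-2* had 1560 in T2 and 1858 in T3, against 2047 in C2 and 291 in C3, a drop of 2.42. Markers of the germ line were also low in C3. All 16 sperm markers tested and 13 of 14 oocyte and eggshell markers were lowest in C3 within the second table, beside 49% of all genes tested. Most of the sperm markers are genes of the *msp* family, and how reads shared within it were assigned is not given. Over the sperm markers, FPKM summed to 682.5 in T1, 498.4 in T2, and 502 in T3, against 367.4 in C1, 475.1 in C2, and 260.6 in C3. The oocyte and eggshell markers summed to 3624 in T1 and 1380 in both T2 and T3, against 3743 in C1, 1722 in C2, and 668.8 in C3, and no marker of either list was at 0 in any library. Of the intestine markers, 3 of 12 were lowest in C3, and their summed FPKM was 2212 in T2 and 2628 in T3, against 2681 in C2 and 2755 in C3. 1 of them went far the other way, *mtl-2*, a metallothionein gene, with 210 FPKM in C3 against 4.82 to 7.41 in the other libraries of its table. The part that these markers have in the values of *ilys-5* was not tested.

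**Figure D3:**
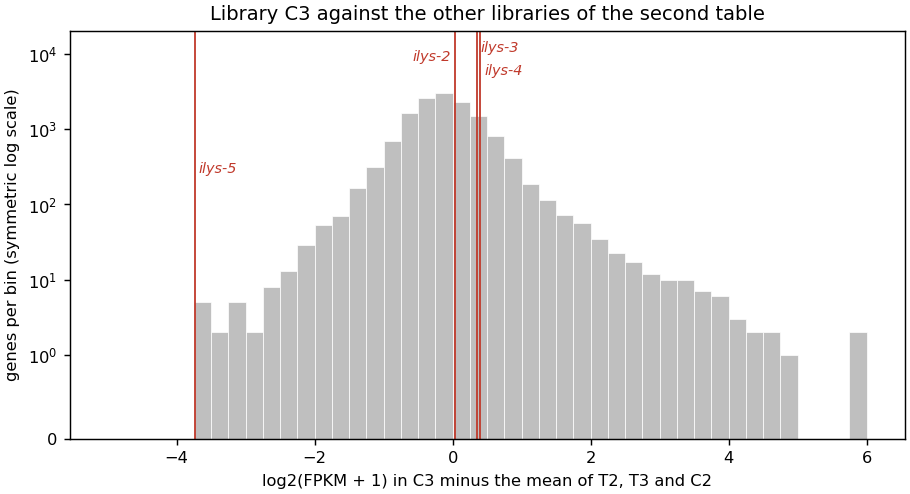
Number of genes (symmetric log scale) by their log2(FPKM + 1) in C3 minus the mean of T2, T3, and C2, for the 14191 genes tested. Red lines mark the *ilys* genes. *ilys-5*, at -3.74, is at the lower edge of the distribution, and *ilys-2*, *ilys-3*, and *ilys-4* are within its main part.

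Every transcript in the first table had an FPKM of at least 0.5 in T1 or C1, whereas values in the second table go down to 0. *ilys-6* was listed only in the second table, with an FPKM of 1.66 in T2 and 0.727 in T3, against 0.254 in C2 and 0.236 in C3. Both VK2 libraries lay above both control libraries. In that table the same held for *ilys-5*, by a margin of 259.9 FPKM in T2 against 259.8 FPKM in C2, and for no other member. The VK2 libraries averaged 1.19 ± 0.66 FPKM and the control libraries 0.245 ± 0.0127 FPKM (SD, n = 2 each), a log2 difference of 0.78 on the scale with 1 added. With 2 libraries per group and a level this low, no test was made. Of all 16724 genes in that table, 11.5% had both VK2 libraries above both controls, and of the 2369 genes with a mean FPKM under 1 the share was 14.6%. Such an order of the libraries, whatever its margin, was thus found in many genes of like level. How many of them were as far apart as *ilys-6*, whose group means had a ratio of 4.88, was not counted.

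Of the 6 members, 4 were listed in both tables, and all 4 passed the minimum mean FPKM of 1. Their median log2 difference was 0.68, beside 0.02 over all genes tested. With 4 members this median is set by the middle values, *ilys-2* and *ilys-3*, which the study chose on these samples as higher under VK2. It is therefore not independent evidence of a shift of the family, and the counts of members below share that limit. By the fitted difference, 3 of the 4 members lay above 0, beside 55.1% of all genes. All 3 of these were higher in VK2-treated worms by at least 1.5 times, *ilys-2*, *ilys-3*, and *ilys-5*, and 0 were lower by as much, beside 3.33% of all genes tested that were higher and 1.68% that were lower. That count was 1 without T1, without C1, or without T2, and the member left was *ilys-5*. It was 2 without C2, *ilys-2* and *ilys-5*, and 2 without C3, *ilys-2* and *ilys-3*. Without C3 the difference of *ilys-5* was -0.27, so its place among the 3 rested on that control library. In limma, 0 of the 4 members and 0% of all genes passed an adjusted p of 0.05. At an unadjusted p below 0.05 there was 1 member, *ilys-2*, beside 3.57% of all genes, or 2.87% counting only those higher in VK2-treated worms. The unadjusted p of *ilys-2* was 0.05 or more under 10 of 22 alternatives, among them quantile normalization and an unmoderated linear model, and ran from 0.00463 to 0.184. That linear model also called 0 genes, with 416 of the 14191 at an unadjusted p below 0.05. Of the 4 members, 0 were higher in all 3 pairs and 0 were lower in all 3, beside 10.8% and 9.32% of all genes. The numbers need not pair the libraries, and with T2 set over C3 and T3 over C2, a pairing chosen after seeing the data, *ilys-2* and *ilys-3* were higher and *ilys-4* was lower in all 3, beside 10.1% and 9.47% of all genes. In no member were the VK2 libraries above, or below, the control libraries within both tables, which was the case for 6.83% and 5.98% of all genes. In T1 over C1, *ilys-2* and *ilys-3* were higher by at least 1.5 times and *ilys-5* was lower by as much, beside 9.48% and 3.52% of all genes. In T2 over C2, *ilys-2* and *ilys-3* were again higher and 0 members lower, beside 4.02% and 2.58%. In T3 over C3, *ilys-5* was higher by at least 1.5 times and *ilys-4* lower by as much, beside 14.8% and 10.9%. The interaction of VK2 and table called 0 members and 0% of all genes, with 1.81% of genes and 0 members at an unadjusted p below 0.05.

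The members followed different patterns across the libraries. With the mean of each table removed, *ilys-2* and *ilys-3* had a Pearson's r of 0.952 over the 6 libraries, whereas *ilys-5* had -0.111 with *ilys-2*, -0.358 with *ilys-3*, and -0.669 with *ilys-4*. These are descriptions over few libraries, and all genes of a library share its preparation and scaling. The share of all genes with as high an r was not counted. For *ilys-5*, C3 is the library furthest from the others of its table, so it weighs most in each r of that gene. Among the 5686 genes with a symbol and a mean FPKM of at least 5, those most like *ilys-2* were *fbxl-1* (r of 0.995), *ptr-13* (0.993), and *zmp-4* (0.992). For *ilys-3* they were *nspc-20* (0.991), *col-150* (0.988), which encodes a cuticle collagen, and *nhr-88* (0.984), a nuclear hormone receptor. For *ilys-4* they were *lars-1* (0.991), which encodes a leucyl-tRNA synthetase, *oac-59* (0.987), and *crm-1* (0.987). For *ilys-5* they were *cpr-6* (0.999), a cathepsin B-like protease that was also in the list of intestine markers, *vit-1* (0.998), a vitellogenin, and *inx-8* (0.998), an innexin of gap junctions. *cpr-6* had 552 FPKM in T1 against 612 in C1, and 195 in both T2 and T3 against 198 in C2 and 117 in C3, so its drop in C3 was much smaller than that of *ilys-5*, and C2 was its highest library of that table where T3 was that of *ilys-5*. *inx-8* had 79.1 FPKM in T1 against 97.3 in C1, and 32.1 in T2 and 32.7 in T3 against 31.6 in C2 and 13.6 in C3.

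The neighbors of the *ilys* genes on the chromosomes were examined next. Of the 10 genes that flank the cluster of *ilys-3*, *ilys-2*, and *ilys-1*, 5 had a fitted difference above 0 and 5 below, and their median was 0.01. The nearest on each side were *cdh-10*, a cadherin gene, at -0.14 (standard error 0.32) and *grd-16*, a hedgehog-related gene, at 0.21 (standard error 0.22). Only Y69A2AR.19 was higher by at least 1.5 times, at 0.71 (standard error 0.26). Around *ilys-5*, 9 of the 10 flanking genes were tested, and their differences ran from -0.37 in *ttr-6* to 0.27 in *dop-3*, with a median of -0.01. The transcription factor genes *ceh-60* and *ets-4*, which precede *ilys-5* on the map, were at 0.21 and -0.25. Of the 9, 2 were lowest in C3 within the second table, beside 49% of all genes tested. The like counts were 8 of 10 around *ilys-4*, which itself was highest in C3, 6 of 9 around *ilys-6*, and 4 of 10 around the cluster. The 10 genes around *ilys-4* had a median of 0.04 and ran from -0.13 to 0.45. They include *atic-1*, which overlaps *ilys-4* rather than flanking it and was among those lowest in C3. Around *ilys-6*, 9 of 10 were tested, with a median of 0.16 and a range of -0.06 in *pcn-1* to 0.49 in *pqn-75*.

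**Figure D4:**
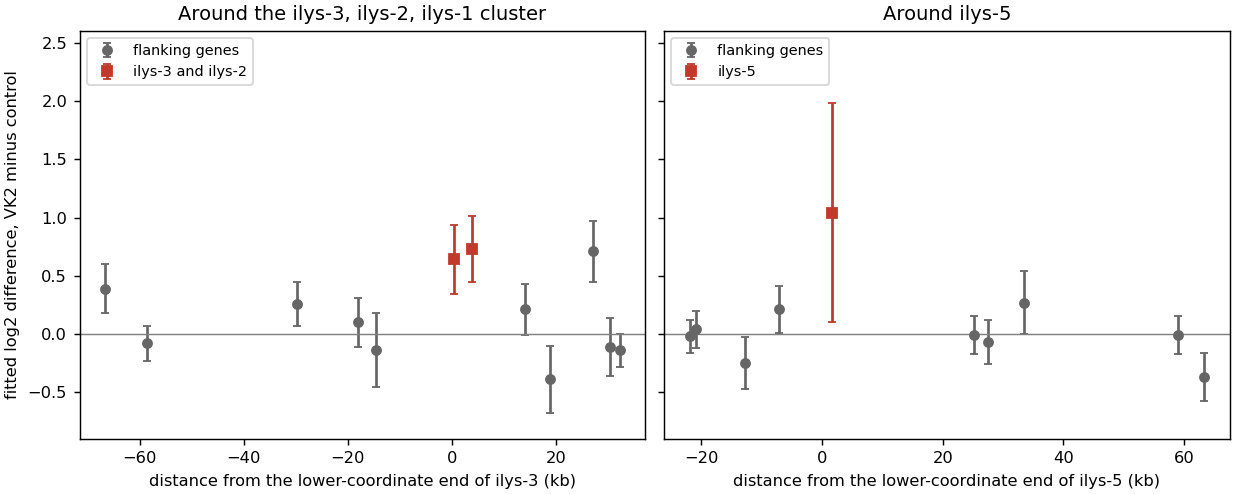
Fitted log2 difference, VK2 minus control, with its standard error, by distance in kb, for the *ilys-3*, *ilys-2*, and *ilys-1* cluster and its flanking genes (left) and for *ilys-5* and its flanking genes (right). The flanking genes run from -0.39 to 0.71 around the cluster, with *ilys-3* at 0.64 and *ilys-2* at 0.73, and from -0.37 to 0.27 around *ilys-5* at 1.04.

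The other lysozymes and the genes linked to the *ilys* family gave the following values, with 0 genes of any list past an adjusted p of 0.05 in limma. Of 9 amoeba-type lysozymes tested, 6 had a positive and 3 a negative difference, beside 55.1% of all genes above 0, and the median was 0.51. At an unadjusted p below 0.05 in limma there were 3, beside 3.57% of all genes. As many, 3, were higher in VK2-treated worms by at least 1.5 times, beside 3.33% of all genes. *lys-10* had the largest of these differences, 1.94 (standard error 0.77), with 16.6 FPKM in T1 against 2.7 in C1, and 19.9 in T2 and 14.5 in T3 against 15.7 in C2 and 0.617 in C3. It was thus lowest in C3 in the second table, as *ilys-5* was, but unlike *ilys-5* it was higher in T1 than in C1. *lys-6* followed at 0.77 (standard error 0.32), and the lowest were *lys-3* at -0.41 and *lys-2* at -0.33. The study also lists primers for *lys-4*, *lys-5*, and *lys-7*, and it chose its defense genes as higher under VK2 in these samples. The direction of those genes is therefore not independent evidence, as for *ilys-2* and *ilys-3*. Taken pair by pair, the median of the *lys* genes was 0.80 for T1 over C1, -0.09 for T2 over C2, and 0.56 for T3 over C3, whereas *ilys-2* and *ilys-3* were below 0 only for T3 over C3. Saposin-like proteins, small proteins that disrupt membranes and are known as intestinal antimicrobials, had 8 higher and 13 lower of 21, with a median of -0.12. *spp-11* was the 1 member higher by at least 1.5 times, at 1.37 (standard error 0.45), beside 3.33% of all genes. It had 9.89 FPKM in T2 and at most 2.9 in any other library. *spp-9* and *spp-17* were lowest at -0.57 and -0.55, and *spp-9* was below 1 FPKM in every library except C3, at 3.68. In the ERK MAP kinase cascade, 9 of 15 genes were higher and 6 lower, with a median of 0.05, and none reached 1.5 times. The largest values there were *ksr-1* and *ksr-2*, scaffold genes of the cascade, at 0.25 and 0.17, and the lowest were *lin-31*, a transcription factor gene, and *sem-5*, an adaptor gene, at -0.27 and -0.17. The tissue markers had medians of 0.04 for intestine, 0.00 for pharynx, and -0.06 for coelomocytes, the scavenger cells of the body cavity. Sperm markers had a median of 0.61 over 16 genes, with 0.90 for T1 over C1, 0.07 for T2 over C2, and 0.91 for T3 over C3. All 16 were higher in VK2-treated worms, 9 of them by at least 1.5 times, and 10 had an unadjusted p below 0.05 in limma. The shares over all genes were 55.1%, 3.33%, and 3.57%. Most of these markers are genes of the *msp* family. How reads shared within that family were assigned is not given, so the 16 are not separate evidence. Oocyte and eggshell markers had a median of 0.24 over 14 genes, but -0.06 for T1 over C1 and -0.31 for T2 over C2, and they were higher only against C3, at 1.24 for T3 over C3.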

How the data were processed

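RNA from 3 VK2 and 3 control samples was sequenced by the authors. Per the labels and the methods of the study, reads were aligned with Hisat2 (2.1.0) to WBcel235, and the authors used Ballgown to deposit FPKM per transcript in 2 tables. The submitters' processing notes also name cutadapt, StringTie, and STAR 2.5.2b, with no role given. The first table listed only coding transcripts and the second also 1129 non-coding ones. In the first table, 49 lines had lost their tabs and were split again at the gene ID. Depth is unknown.

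FPKM was summed per gene, and 14191 of the 15207 genes in both tables, those with a mean FPKM of at least 1, were tested with limma 3.58.1 (R 4.3.3; intensity trend, two-sided) on log2(FPKM + 1). The model held a VK2 term and a table term, and p-values were adjusted by Benjamini-Hochberg. The limma code was tested on simulated data. Positions came from Ensembl. Python 3.11.15, numpy 2.4.6, pandas 2.3.3, and matplotlib 3.10.9 were used.

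The members and the lists of other genes were chosen with earlier results of these data known. Named genes are the members, the 3 genes most like each member tested, 5 flanking genes on each side, and the 2 highest and 2 lowest of each list. The alternatives were other pseudocounts, filters, scalings, and limma settings, the second table alone, no table term, the most abundant transcript, the replicate number as a block, and each library left out. A crossed block and coding transcripts only were chosen after seeing the data.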

Additional observations from a re-analysis of the deposited data

How the results depend on the processing

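Under the 22 alternatives, 0 members passed an adjusted p of 0.05 and 0 were lower by at least 1.5 times. *ilys-2* and *ilys-3* kept their direction in all 22, with log2 differences of 0.54 to 1.01 and 0.34 to 0.97. *ilys-4* turned to 0.028 without T3 and to 0.0032 without C3, and *ilys-5* turned to -0.27 without C3, the 1 control library with a low value, and was 1.87 without T1 or without C1. The median of the 4 genes ran from 0.44 to 0.83. The number of members higher by at least 1.5 times was 1 within the second table alone and from 1 to 3 with each library left out. Over all genes, limma called 0 to 2 genes with each library left out (1 without T2 and 2 without C3). Genes at an unadjusted p below 0.05 numbered 260 with a mean FPKM of at least 5, where fewer genes are tested, 70 without the table term, 199 in the second table alone, and 155 to 1586 with each library left out. The causes of the other changes were not tested. Where T1 or C1 was left out, the comparison rested on the second table.

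With the replicate number as a block, limma called 0 genes, 588 had an unadjusted p below 0.05, and 3 members stayed higher by at least 1.5 times. Libraries of the same number deviated together from their group means (r of 0.881, 0.556, and 0.543 across genes), but T2 and C3 (0.608) and T3 and C2 (0.613) did so as well. The difference between the tables was not removed for these values. The libraries of each such pair share a table, so that difference enters every r. Within the second table, T2 minus T3 against C2 minus C3 gave -0.111, so the numbers were not taken to pair the samples. The crossed block, chosen after seeing the data, called 0 genes and left 616 genes below an unadjusted p of 0.05, with unadjusted p-values of 0.0066 for *ilys-2* and 0.022 for *ilys-3*, against 0.0373 and 0.0709 in limma with the numbers as given. Depth is unknown, so no limit of detection can be set for *ilys-6* beyond the lowest listed level in the first table. For *ilys-1* none can be set, since it is missing even from the second table, where transcripts at 0 in all libraries are listed.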
